A study of Sus scrofa with 4 samples.

Results

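The 9 genes ELN, FBN1, FBLN1, FBLN2, FBLN5, MFAP4, MFAP5, LOX and LOXL1 encode parts of elastic fibres and microfibrils and the enzymes that cross-link them, and their RNA was followed in single cells of pig meniscus. They were taken as a list of gene symbols, and each matched 1 of the 21280 features of the count tables. The meniscus is the fibrocartilage pad of the knee joint, whose inner white zone has no vessels and whose outer red zone is vascularised. The 4 libraries of pig (Sus scrofa) tissue came from the medial meniscus white zone, the lateral meniscus white zone, the medial meniscus red zone and the lateral meniscus red zone, with 1 library each. Before droplet capture the synovium was cut away, the zones were separated and the pieces were digested with Pronase and then Collagenase P. The labels name no animal, breed, age, sex or treatment, so the p-values below measure the spread between these 4 libraries, which may be technical, and the zone test over all cells had 1 residual degree of freedom.

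An elastic fibre is a core of cross-linked elastin laid on a scaffold of fibrillin microfibrils. Fibulins and microfibril-associated proteins join the core to the scaffold, and lysyl oxidases oxidise lysines of elastin and collagen so that the chains can cross-link. In the meniscus, elastic fibres are a minor component that runs among the collagen bundles, and microfibrils also occur without elastin.

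The kept cells numbered 7805 in the medial white, 7379 in the lateral white, 6509 in the medial red and 5554 in the lateral red library, 27247 in all, with a median of 1452.5 to 1617 UMIs per cell. A UMI is a molecular tag that counts 1 captured transcript end. Library totals were 14895192, 13709550, 10923767 and 9201565 UMIs in the same order, and 10 to 20 cell barcodes were shared between any 2 libraries. Levels are given in CPM, which are UMIs scaled to a total of 1000000 in the library or group of cells. They come from counts at transcript ends that are not divided by transcript length, so they are compared between samples for 1 gene and not between genes. Whole-library levels also cannot separate fewer cells of a type from less RNA per cell. Intervals and floors cover counting error only.

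Between zones, over all cells of a library, 8 of the 9 genes differed, and they split by direction. The 8 include MFAP5, whose call adds nothing to its counts, as given below. ELN, FBLN1 and LOX were higher in the white zone, whereas FBN1, FBLN2, FBLN5, MFAP5 and LOXL1 were lower there, and MFAP4 was not called. A call means a Benjamini-Hochberg adjusted p below 0.05 in edgeR's quasi-likelihood test of white over red zone, with the meniscus as a second term. The SE given with an edgeR fold change is its absolute value divided by the square root of the test's F statistic. It is thus derived from the test and not fitted. Over all 12429 genes tested 41.9% were called, 18.9% as higher and 22.9% as lower, so a difference between zones was common in these libraries. The 9 genes had a median log2 fold change of -0.96, against -0.003 for all genes tested. Without scaling by TMM the median of all genes became -0.50 and the split of calls 882 higher to 5063 lower, against 2352 higher to 2851 lower with it, and the 8 genes kept their calls and directions.

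**Figure D1:**
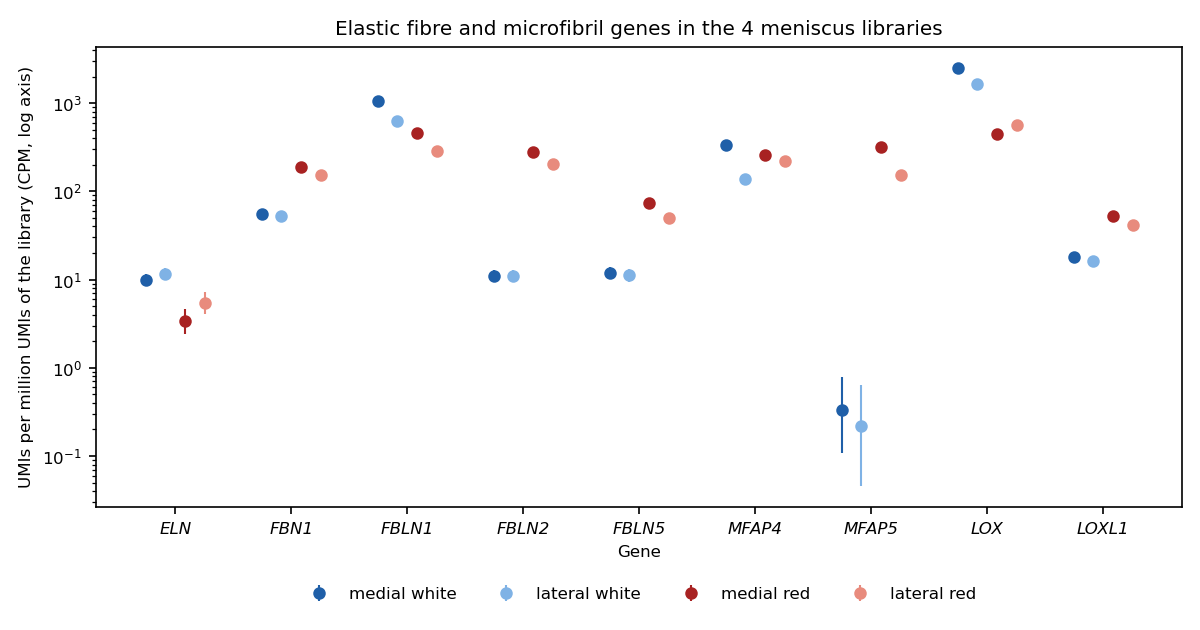
Each point is the level of 1 gene in 1 library, in CPM on a log axis, for the medial white, lateral white, medial red and lateral red library. MFAP5 lies below 0.4 CPM in both white zone libraries and above 150 CPM in both red zone libraries, LOX shows the opposite order with a smaller gap, and the MFAP4 points of the zones overlap.

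ELN (ENSSSCG00000025858, chr3:11214194-11245891 in Sscrofa11.1, with positions from RefSeq) encodes tropoelastin, the monomer of the elastic core. It was sparse, with 148 UMIs in the medial white and 159 in the lateral white library, against 37 in the medial red and 50 in the lateral red library. These counts made 9.94 and 11.6 CPM in white, against 3.39 and 5.43 CPM in red. Both white zone libraries lay above both red zone libraries. The log2 fold change was 1.81 ± 0.27 (SE, 2 libraries per zone, adjusted p = 0.000181). A UMI of ELN was found in 1.83% and 2.06% of white zone cells, against 0.538% and 0.846% of red zone cells. Cells with at least 1000 UMIs were also thinned to 1000, and cells with fewer were left out of all thinned shares. This kept 6861 medial white, 6135 lateral white, 4951 medial red and 4184 lateral red cells. Red libraries lost a larger part of their cells this way than white ones. The thinned ELN shares were 0.875% and 1.24% in white, against 0.263% and 0.55% in red.

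FBN1 (ENSSSCG00000004658, chr1:123102011-123359649) encodes fibrillin-1, the main subunit of microfibrils. It stood at 55.3 and 52.6 CPM in medial and lateral white, against 187 and 154 CPM in medial and lateral red. The zones did not overlap, and the log2 fold change was -1.17 ± 0.19 (SE, adjusted p = 0.00032).

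MFAP5 (ENSSSCG00000031712, chr5:62742520-62757522) encodes a glycoprotein that binds fibrillin microfibrils, and it showed the widest gap between zones among the 9 genes. The medial white library held 5 UMIs and the lateral white library 3, against 3476 in the medial red and 1405 in the lateral red library. As levels these were 0.336 CPM (95% Poisson interval 0.109 to 0.783) and 0.219 CPM (0.0451 to 0.64) in white, against 318 and 153 CPM in red. Summed over the zone, red held 867 times the white level, and the log2 fold change was -9.20 ± 0.31 (SE, adjusted p = 1.28e-08). This SE, derived from the test, is no measure of the counting error of the white level. Over the white zone that level was 0.28 CPM (95% Poisson interval 0.121 to 0.551). MFAP5 passed the filter on low counts only through the red zone, where it is high, so its call adds nothing to these counts. The 8 white zone UMIs lay in 8 different cells, of which 4 were in the mural group, 1 in the fibrochondrocyte group, 1 in the chondrocyte group and 2 in no group. The share of cells with a UMI was 0.0641% and 0.0407% in the white zone, against 21.4% and 11.0% in the red zone, and 0.0437% and 0.0326% against 17.5% and 9.27% after thinning.

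MFAP4 (ENSSSCG00000036007, chr12:60141488-60144214) encodes a protein that binds elastin and fibrillin. It had 335 CPM in the medial white and 138 CPM in the lateral white library, against 257 CPM in the medial red and 222 CPM in the lateral red library. The red zone values lay between the white zone values, so the zones overlapped. The log2 fold change was 0.34 ± 0.25 (SE, adjusted p = 0.29), and it was -0.15 without TMM. Without the lateral white library it was called at 0.92 (adjusted p = 0.00414), and without the medial white library it was -0.24 with no call.

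FBLN1, FBLN2 and FBLN5 encode fibulins, glycoproteins found with elastic fibres and basement membranes, and they did not move together. FBLN1 (ENSSSCG00000000010, chr5:3839498-3927178) had 1047 and 628 CPM in medial and lateral white, against 457 and 284 CPM in medial and lateral red. Both white zone libraries lay above both red zone libraries, and the log2 fold change was 1.66 ± 0.24 (SE, adjusted p = 0.000164). A FBLN1 UMI was present in 68.2% and 57.7% of white zone cells, against 34.7% and 25.0% of red zone cells. After thinning these shares were 56.5% and 43.1%, against 28.9% and 20.8%.

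FBLN2 (ENSSSCG00000011609, chr13:70757255-70830430), whose product is also found in vessel walls, went the other way. It had 11.0 CPM in each white zone library, against 280 CPM in the medial red and 205 CPM in the lateral red library. The red zone held 22.3 times the white zone level, and the log2 fold change was -3.95 ± 0.22 (SE, adjusted p = 1.37e-07). FBLN5 (ENSSSCG00000002444, chr7:113423629-113526412), which binds tropoelastin and LOXL1, had 11.8 and 11.2 CPM in white, against 73.1 and 49.4 CPM in red. Its zones did not overlap either, with a log2 fold change of -1.90 ± 0.21 (SE, adjusted p = 1.82e-05).

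The lysyl oxidases LOX and LOXL1 also differed in direction. LOX (ENSSSCG00000014232, chr2:125595115-125607026), which acts on collagen and elastin, had 2477 and 1650 CPM in medial and lateral white, against 447 and 567 CPM in medial and lateral red. Every white zone value was above every red zone value, and the log2 fold change was 2.50 ± 0.32 (SE, adjusted p = 6.33e-05). A LOX UMI was present in 78.5% and 69.0% of white zone cells, against 29.6% and 26.9% of red zone cells, and in 74.7% and 61.5% against 26.7% and 26.0% after thinning.

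LOXL1 (ENSSSCG00000001914, chr7:59481410-59505161), a lysyl oxidase known in mice for the upkeep of elastic fibres, had 17.9 and 16.3 CPM in white, against 52.0 and 41.5 CPM in red. The zones did not overlap, and the log2 fold change was -0.96 ± 0.19 (SE, adjusted p = 0.00166). Without the medial red library it was -0.81 and no longer called (adjusted p = 0.0701).

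Between menisci, none of the 9 genes was called in the same edgeR fit of medial over lateral meniscus, in which 0.266% of the 12429 genes were called and in each alternative tried 0 of the 9 were called. At an unadjusted p below 0.05 there were 941 genes, 3 of the 9 among them, and DESeq2 called 27 genes with 0 of the 9. MFAP5 was 0.98 ± 0.24 higher on the log2 scale in the medial meniscus (adjusted p = 0.184, higher in both zones). With 2 libraries per meniscus the zones also gave unlike differences. LOX was higher by 0.46 on the log2 scale in the medial than in the lateral meniscus in the white zone, and the same difference in the red zone was -0.39, neither of which was tested alone.

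To see which cells carried these transcripts, cells were grouped by counts of marker genes, none of which is among the 9. A cell joined the group with the highest marker score when the score, its lead and the number of detected markers passed fixed minimums. The fibroblast group held 65 medial white, 130 lateral white, 2611 medial red and 1532 lateral red cells. The fibrochondrocyte group, defined by cartilage matrix genes such as COMP, CILP and FMOD, held 4092, 1490, 221 and 364 cells in the same order, and the chondrocyte group, defined by genes such as COL2A1, 1748, 2789, 22 and 64. The mural group of vessel-associated muscle cells and pericytes held 128, 112, 741 and 733 cells, the endothelial group 184, 128, 663 and 701, and the myeloid group 49, 71, 448 and 461. In total 7337 of the 27247 cells joined no group.

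The groups were not equally clean in both zones. The 11 fibroblast markers summed to 6239 and 8850 CPM in the medial and lateral white fibroblast group, against 16480 and 17682 CPM in the medial and lateral red one. PI16 was at 0 in both white libraries of that group, and SFRP2 and MME were at 0 in the medial white one. Not all markers fell in white. PDGFRA was higher there, at 974 and 586 CPM in medial and lateral white, against 182 and 265 CPM in medial and lateral red. For CXCL14 (801 and 2064 CPM, against 1582 and 1609 CPM) and DPT (304 and 181 CPM, against 256 and 512 CPM) the zones overlapped. The other markers were lower in both white libraries. The 9 chondrocyte markers summed to 1623 and 1669 CPM in white fibroblast group cells, against 371 and 554 CPM in red ones, and the 7 fibrochondrocyte markers to 7710 and 8571 CPM, against 4981 and 8120 CPM. The white zone fibroblast group is thus a small set of cells with marker counts of both kinds. The mural group also differed between zones. RGS5 was at 6238 and 6374 CPM in medial and lateral white, against 1927 and 2239 CPM in medial and lateral red mural cells. ACTA2 was at 768 and 1517 CPM, against 3370 and 3605 CPM, and MYH11 at 419 and 518 CPM, against 1320 and 1153 CPM. The part of this in the zone differences of mural cells was not tested.

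The fibroblast group was compared with each other group in 1 edgeR fit of 10226 genes with the library as a block. Groups with under 50 cells in a library were left out for that library. The chondrocyte group thus entered with 3 libraries, without medial red (22 cells). The myeloid group also entered with 3, without medial white (49 cells), here and in the later comparisons with it. Against the fibrochondrocyte group 6 of the 9 were called, with 12.3% of all genes called, 6.87% as higher and 5.45% as lower. FBN1 (log2 fold change 1.53 ± 0.27), FBLN2 (1.95 ± 0.40), LOXL1 (1.48 ± 0.28) and MFAP5 (3.86 ± 0.53) were higher in the fibroblast group. LOX (-1.90 ± 0.51, adjusted p = 0.0105) and ELN (-1.58 ± 0.51, adjusted p = 0.0352) were lower in it. DESeq2 called 3 of the 9, and so did a stricter grouping of cells. LOX and ELN were called in neither, FBLN2 not in DESeq2 (adjusted p = 0.0594) and LOXL1 not in the stricter grouping (adjusted p = 0.0521). ELN was also lost without the lateral white library (adjusted p = 0.159).

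Against the chondrocyte group 6 of the 9 were called, with 20.8% of all genes called, 11% as higher and 9.79% as lower. FBN1 (1.92 ± 0.32), FBLN2 (2.72 ± 0.51), FBLN5 (1.87 ± 0.41), LOXL1 (1.75 ± 0.33) and MFAP5, of which chondrocytes held 1 UMI in all, were higher in the fibroblast group. The MFAP5 call adds nothing to its counts. ELN was lower in it (-2.08 ± 0.55, adjusted p = 0.00648), and this call was lost without the lateral white library (adjusted p = 0.0582). FBLN5 lost its call without that library (1.35, adjusted p = 0.0788) and MFAP5 without the lateral red one (adjusted p = 0.141), and LOXL1 was not called with the stricter grouping (0.79, adjusted p = 0.222).

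Against mural cells all 9 genes were higher in the fibroblast group, where 29.1% of all genes were called and 16.1% as higher. The smallest of these differences was that of FBN1 (1.01 ± 0.28, adjusted p = 0.00525), which was not called without the medial red (0.72, adjusted p = 0.104) or the lateral red library (0.86, adjusted p = 0.0865). ELN was not called without the medial red library (adjusted p = 0.0613), nor MFAP5 with DESeq2 (0.99, adjusted p = 0.689). The 9 include ELN, which was at 0.806 CPM or less in every mural library. It passed the filter on low counts only through other groups, so its call adds nothing to its counts. Against the endothelial group 8 of 9 were higher, with 37.9% of all genes called and 21.3% as higher. The same limit holds for ELN there, at 1.72 CPM or less in every endothelial library. FBLN2 was the exception, at -0.35 ± 0.36 (adjusted p = 0.488). Against the myeloid group all 9 were higher, from 4.13 ± 0.70 for LOX to 6.40 ± 0.65 for FBLN5 on the log2 scale, with 45.8% of all genes called and 24.6% as higher. ELN was at 0 in every myeloid group, so its fold there has no value and its call adds nothing to its counts. Scaling without TMM moved the median of all genes to 0.34, 0.44, -0.27, -0.23 and 0.01 in these 5 comparisons, in the order given, and no call among the 9 changed sign under it. Genes called as higher and lower then numbered 1521 and 275 against fibrochondrocytes (703 and 557 with TMM), 2338 and 457 against chondrocytes (1121 and 1001), 1079 and 2612 against mural cells (1647 and 1326) and 1664 and 2701 against endothelial cells (2182 and 1689).

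**Figure D2:**
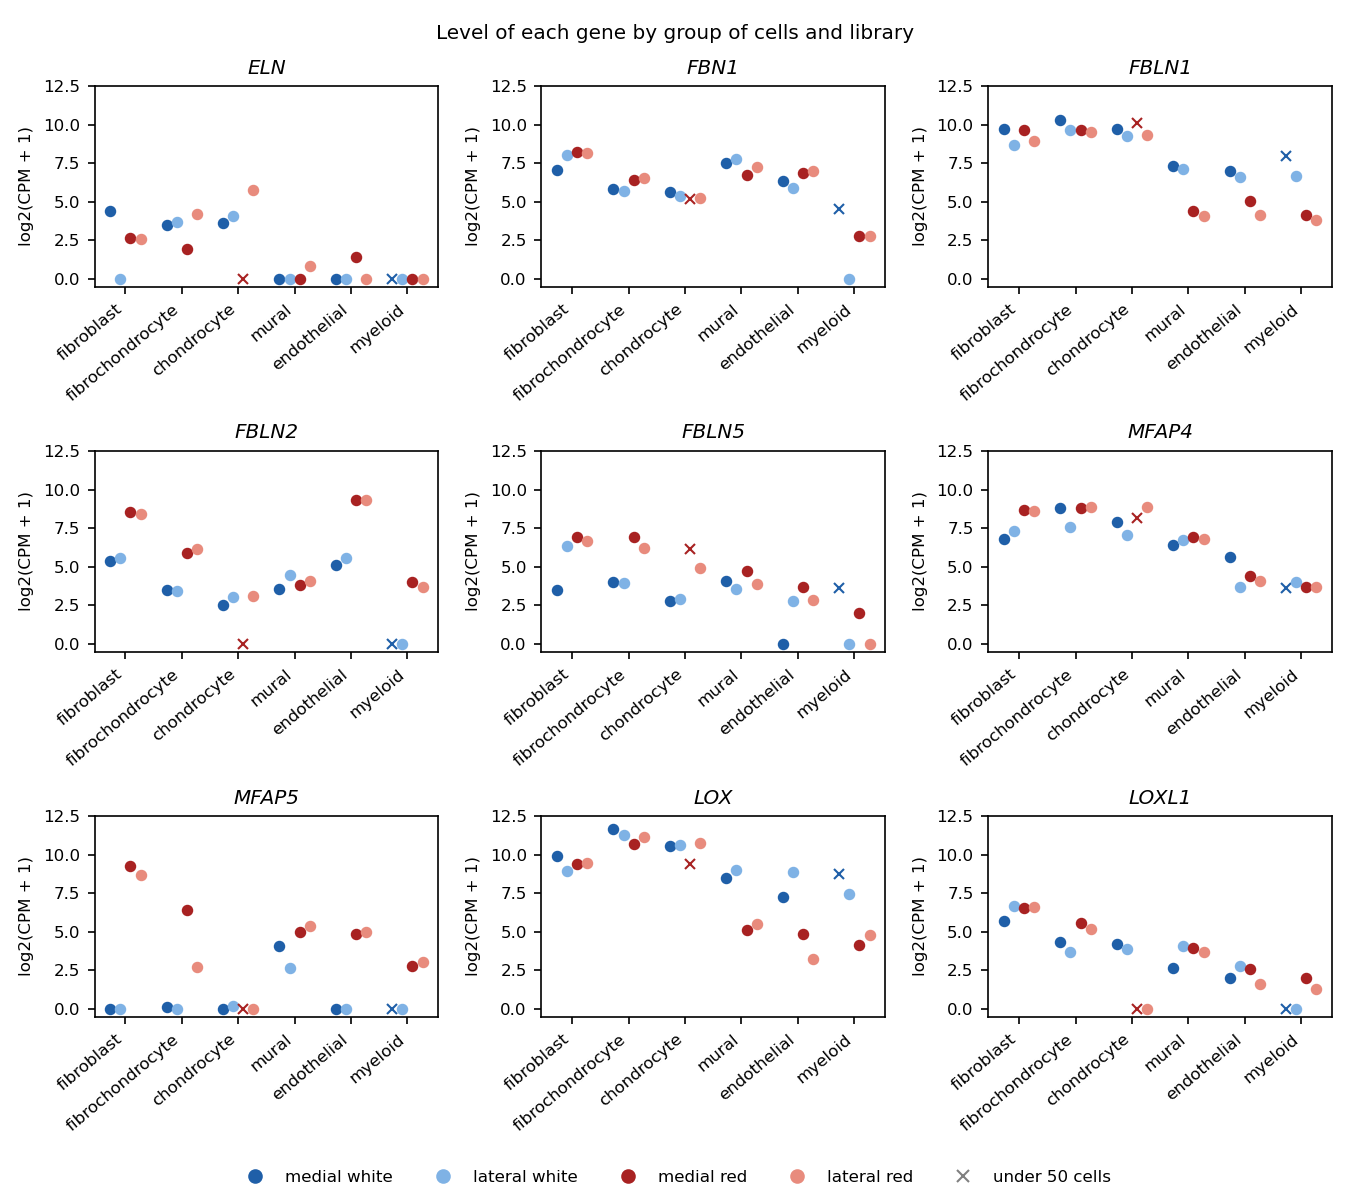
Each panel shows 1 gene, with the group of cells on the x axis and log2(CPM + 1) on the y axis, and each point is 1 library; crosses mark groups with under 50 cells. MFAP5 is at 0 in both white zone fibroblast groups and at 612 and 418 CPM in the red ones, and LOX in the mural and endothelial groups lies higher in the white than in the red libraries.

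The 9 genes thus had different leading groups. MFAP5 stood at 612 CPM in the medial red and 418 CPM in the lateral red fibroblast group, and a UMI was found in 43.6% and 30.6% of those cells. In the myeloid group of the same libraries it stood at 6.01 and 7.32 CPM, with a UMI in 0.893% and 0.434% of cells, at medians of 1344.5 and 1421 UMIs per cell against 1650 and 1678.5 in the fibroblast group. The red fibroblast group held 82.9% and 82.2% of all MFAP5 UMIs of the medial and lateral red library. Of the UMIs of all genes it held 4712536 of 10923767 and 2762980 of 9201565. Red mural cells had 30.9 and 41.1 CPM and red endothelial cells 28.4 and 30.2 CPM, which lay between those groups. T or NK cells had 15.7 to 162 CPM over 2 libraries, and B or plasma cells 66.4 CPM in 1 library. Mural and endothelial cells were thus not above all lymphoid cells in MFAP5, and neither lymphoid group was tested. Across groups MFAP5 in the mural group was higher than in the myeloid group (2.38 ± 0.78, adjusted p = 0.0137), a comparison added after the data were seen that lost its call without the lateral red library (2.49, adjusted p = 0.0888).

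FBN1 was led by fibroblasts and mural cells. The fibroblast group had 132 and 260 CPM in the medial and lateral white library and 296 and 287 CPM in the medial and lateral red one. Mural cells followed with 183 and 219 CPM in white and 108 and 153 CPM in red, and the ranges of these groups overlapped. Endothelial cells had 79.9 and 59.4 CPM in white and 117 and 126 CPM in red. Myeloid cells held 22.3, 0, 6.01 and 5.86 CPM in the 4 libraries, on at most 4 UMIs each. Compared with the myeloid group, FBN1 was higher in mural cells by 4.69 ± 0.52 and in endothelial cells by 4.10 ± 0.53 on the log2 scale, in comparisons added after the data were seen. Mural cells were higher than myeloid cells for 5 of the 9 genes (41.5% of all genes called, 21.3% as higher), and endothelial cells for 2 of the 9 (34.7% called, 16.9% as higher). Without TMM the splits of all genes were 2790 higher to 1680 lower and 2251 higher to 1509 lower, against 2174 to 2067 and 1733 to 1816 with it.

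FBLN2 stood apart because endothelial cells of the red zone carried it as well as fibroblasts. Red endothelial cells had 650 and 629 CPM, and 51.1% and 43.9% of them had a UMI. Red fibroblasts had 375 and 341 CPM with a UMI in 41.7% and 38.6%, and red myeloid cells 15.0 and 11.7 CPM with a UMI in 1.79% and 1.30%. The red endothelial group held 24.7% and 32.1% of the FBLN2 UMIs. Of the UMIs of all genes it held 1161508 of 10923767 in medial red and 961390 of 9201565 in lateral red. Some endothelial cells held no UMI of any of 9 fibroblast markers. Their FBLN2 level was 687 CPM in the medial red and 588 CPM in the lateral red library, and 48.5% and 39.1% had a FBLN2 UMI. The fibroblast markers CLEC3B and COL14A1 were not among these 9, so such cells may hold their UMIs. FBLN2 was higher in endothelial than in myeloid cells by 5.15 ± 0.57 on the log2 scale (edgeR, adjusted p = 5.14e-09). In mural cells it stayed at 10.7 to 21.4 CPM in all 4 libraries.

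LOX and FBLN1 were led by the cartilage-like groups. LOX had 3184 and 2454 CPM in medial and lateral white fibrochondrocytes and 1631 and 2247 CPM in the red ones. Chondrocytes followed with 1524 and 1568 CPM in white and 1708 CPM in the lateral red library, and the ranges of these groups overlapped. Fibroblasts came next with 964 and 483 CPM in white and 662 and 702 CPM in red, below the 3 chondrocyte libraries with at least 50 cells, while the 22 medial red chondrocytes had 673 CPM. A LOX UMI was found in 92.3% and 82.3% of white fibrochondrocytes, against 18.4% and 11.3% of white myeloid cells. FBLN1 had 1278 and 803 CPM in white and 815 and 719 CPM in red fibrochondrocytes, a range that overlapped those of chondrocytes and fibroblasts.

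ELN UMIs were spread over several groups. Chondrocytes had 11.3 and 15.6 CPM in the medial and lateral white library and 52.4 CPM, from 7 UMIs, in the lateral red one. Fibrochondrocytes had 10.6 and 12.2 CPM in white and 2.91 and 17.2 CPM in red. Fibroblasts had 20.3 and 0 CPM in white, from 2 and 0 UMIs, and 5.30 and 5.07 CPM in red. There they held 67.6% and 28.0% of the 37 and 50 ELN UMIs of the medial and lateral library. Of the UMIs of all genes they held 4712536 of 10923767 in medial red and 2762980 of 9201565 in lateral red. Mural cells together held 1 ELN UMI and endothelial cells 2, so elastin transcripts of vessel walls were hardly detected at this depth. MFAP4 lay at 446 and 195 CPM in white and 454 and 459 CPM in red fibrochondrocytes, and at 112 and 158 CPM in white and 410 and 383 CPM in red fibroblasts.

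FBLN5 and LOXL1 were led by fibroblasts, with fibrochondrocytes next. LOXL1 in the fibroblast group had 50.7 and 102 CPM in white and 93.2 and 97.0 CPM in red, above the range of 12.2 to 46.6 CPM in fibrochondrocytes. FBLN5 had 10.1 and 79.0 CPM in white and 119 and 102 CPM in red fibroblasts, and the ranges of these groups overlapped. The medial white fibroblast values of both genes rest on few UMIs, as that group held 98575 UMIs of all genes. For LOXL1, 50.7 CPM is thus not set apart from 46.6 CPM beyond counting error.

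**Figure D3:**
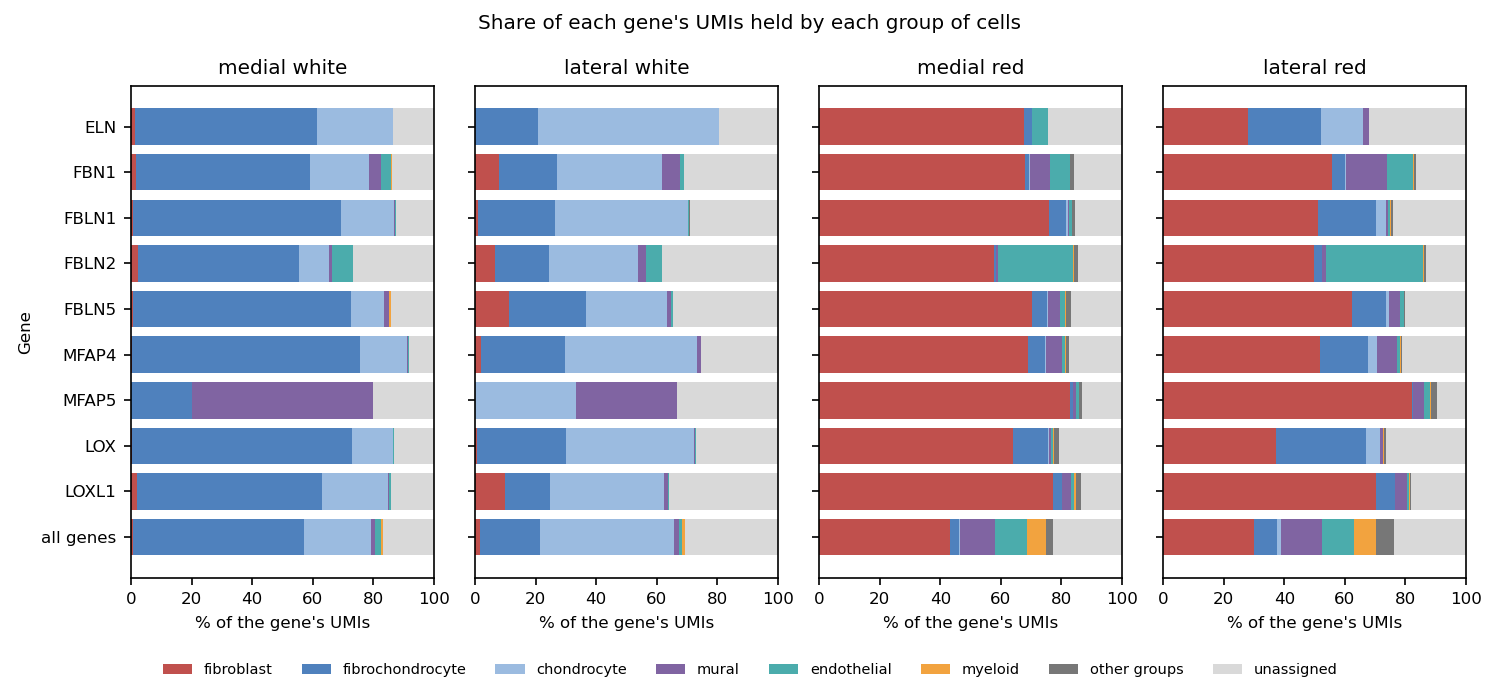
Each bar is 1 gene in 1 library and shows the percentage of its UMIs that lay in each group of cells, with all genes together as the lowest bar. In the red libraries the fibroblast group holds 82.9% and 82.2% of MFAP5 UMIs and the endothelial group 24.7% and 32.1% of FBLN2 UMIs; the white MFAP5 bars rest on 5 and 3 UMIs.

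The number of the 9 genes with a UMI was also counted per cell, in cells with at least 1000 UMIs, thinned to 1000. Such shares depend on how often each gene is detected. They were not compared with those of independent detection, so they are no measure of joint expression. UMIs of 3 or more of the genes were held by 39.1% of 2121 medial red and 29.3% of 1285 lateral red fibroblasts. The most in 1 cell was 7. The share was 5.66% and 10.3% in the medial and lateral white fibroblast group. Fibrochondrocytes reached 26.5% and 10.6% in white and 20.5% and 23.6% in red, whereas at most 0.276% of myeloid cells in any library did.

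The zone difference was then tested inside groups of cells that had at least 50 cells in every library. In the fibroblast group 3 of 8 tested genes were lower in the white zone and none was higher, with 3.56% of 8323 genes called, 2.04% as lower. FBLN2 had 40.6 and 46.5 CPM in medial and lateral white fibroblasts, against 375 and 341 CPM in red ones, a log2 fold change of -3.04 ± 0.43 (SE, adjusted p = 5.8e-10). MFAP4 had 112 and 158 CPM, against 410 and 383 CPM (-1.58 ± 0.37, adjusted p = 0.00124), and lost its call without the medial red library (adjusted p = 0.0672). MFAP5 had 0 of 313722 UMIs in white fibroblasts, against 4038 of 7475516 in red ones, so it was at least 56.5-fold lower in white (floor of 3 counts over the zone). It passed the filter on low counts only through the red zone, so its call is no support, and DESeq2 did not call it (adjusted p = 0.44).

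The other 5 genes were not called in fibroblasts. LOX had 964 and 483 CPM in white, against 662 and 702 CPM in red (-0.08 ± 0.37, adjusted p = 0.977), and FBLN1 822 and 414 CPM, against 804 and 485 CPM (-0.18 ± 0.37, adjusted p = 0.933). For both, the values of the zones overlapped. FBN1 was -0.61 ± 0.35 and FBLN5 -1.08 ± 0.41. Without the lateral white library they were -1.42 and -3.73, where the white side was 65 medial white cells with 98575 UMIs of all genes. ELN was too sparse for the test, with 2 and 0 UMIs in white and 25 and 14 in red fibroblasts. The lower fibroblast marker sum of the white group moved with these differences, and its part in them was not tested.

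In fibrochondrocytes, a comparison added after the data were seen, 3 of 8 tested genes were lower in white and none higher, with 7.69% of 7659 genes called, 4.28% as lower (154 higher and 303 lower genes without TMM, against 261 and 328 with it). FBLN2 had 10.3 and 9.95 CPM in white, against 58.2 and 71.9 CPM in red (-2.58 ± 0.31, adjusted p = 7.71e-06). FBLN5 had 15.1 and 14.4 CPM, against 119 and 74.7 CPM (-2.61 ± 0.28, adjusted p = 1.76e-06). LOXL1 had 19.4 and 12.2 CPM, against 46.6 and 35.9 CPM (-1.32 ± 0.33, adjusted p = 0.0138), and was lost without the medial red (adjusted p = 0.242) or the lateral red library (adjusted p = 0.131) and with DESeq2 (adjusted p = 0.478).

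LOX (0.64 ± 0.27, adjusted p = 0.181), FBLN1 (0.50 ± 0.25, adjusted p = 0.26) and ELN (0.11 ± 0.51, adjusted p = 0.934), all higher in white over all cells, were not called within fibrochondrocytes. Without the lateral white library LOX (0.74, adjusted p = 0.03) and FBLN1 (0.78, adjusted p = 0.0332) were called, and without the medial white library MFAP4 was called as lower (-1.05, adjusted p = 0.0101). MFAP5 was too sparse for the test, with 0.119 and 0 CPM in white, against 84.4 and 5.75 CPM in red, where the medial red value far exceeded the lateral red one. The 11 fibroblast markers summed to 2143 and 1742 CPM in white fibrochondrocytes, against 5943 and 5440 CPM in red ones, and their part in these differences was not tested.

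In endothelial cells 5 of 6 tested genes were called, with 11.1% of 6328 genes called, 5.14% as higher and 5.93% as lower (415 and 270 genes without TMM, against 325 and 375 with it). These 5 include MFAP5, whose call is no support for the reason given below. FBLN2 had 33.8 and 47.5 CPM in white, against 650 and 629 CPM in red (-4.15 ± 0.35, adjusted p = 1.06e-13), and DESeq2 called it alone among the 9, with no adjusted p for MFAP5. White endothelial cells without a UMI of the 9 fibroblast markers, which leave out CLEC3B and COL14A1, had 72.2 and 36.0 CPM of FBLN2. These values rest on 7 and 4 UMIs, and the red ones stood at 687 and 588 CPM. MFAP5 was at 0 of 493533 UMIs in white, against 62 of 2122898 in red, at least 4.80-fold lower (floor of 3 counts over the zone). It too passed the filter only through the red zone, and its call was lost without the medial white library (adjusted p = 0.0849). FBN1 was -0.88 ± 0.30 (adjusted p = 0.0496) and missed the threshold without any 1 of the 4 libraries (adjusted p of 0.109 to 0.283).

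LOX and FBLN1 were higher in white in both vessel groups. Endothelial LOX was 151 and 475 CPM in white, against 27.6 and 8.32 CPM in red (3.75 ± 0.37, adjusted p = 2.15e-11, but 0.159 with DESeq2). Endothelial FBLN1 was 126 and 95.1 CPM, against 32.7 and 16.6 CPM (2.01 ± 0.36, adjusted p = 3.95e-05). Endothelial FBLN1 was not called without the medial white library (1.85, adjusted p = 0.0535), nor after doublets were removed at the expected rate (0.65, adjusted p = 0.477). In mural cells LOX was 354 and 513 CPM, against 33.2 and 44.3 CPM (3.53 ± 0.25, adjusted p = 0.000117), and FBLN1 156 and 139 CPM, against 19.8 and 16.1 CPM (3.08 ± 0.35, adjusted p = 0.000859). These were the 2 calls among 8 tested genes in mural cells, where 4.42% of 6853 genes were called, 2.10% as higher. Mural FBN1 was 183 and 219 CPM in white, against 108 and 153 CPM in red (0.69 ± 0.25, adjusted p = 0.169), and mural MFAP5 16.1 and 5.34 CPM, against 30.9 and 41.1 CPM (-1.67 ± 0.66, adjusted p = 0.209), with no overlap of zones for either and no call.

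Myeloid cells, which were not tested, had LOX at 436 and 177 CPM in white, against 16.5 and 26.4 CPM in red. Markers of cartilage-like cells moved with it in all 3 groups. The 7 fibrochondrocyte markers summed to 3618 and 3628 CPM in white mural cells, against 257 and 551 CPM in red ones. In endothelial cells they summed to 3108 and 3435 CPM, against 380 and 313 CPM, and in myeloid cells to 4256 and 1404 CPM, against 263 and 469 CPM. The 9 chondrocyte markers followed the same order, with 1095 and 1608 CPM, against 11.1 and 39.5 CPM, in mural cells. The part of such RNA in the LOX and FBLN1 differences of these groups was not tested.

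The zone comparison was not tested in the chondrocyte group, which had 22 cells in the medial red library. There LOX had 1524 and 1568 CPM in white, against 673 and 1708 CPM in red, and the zones overlapped.

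**Figure D4:**
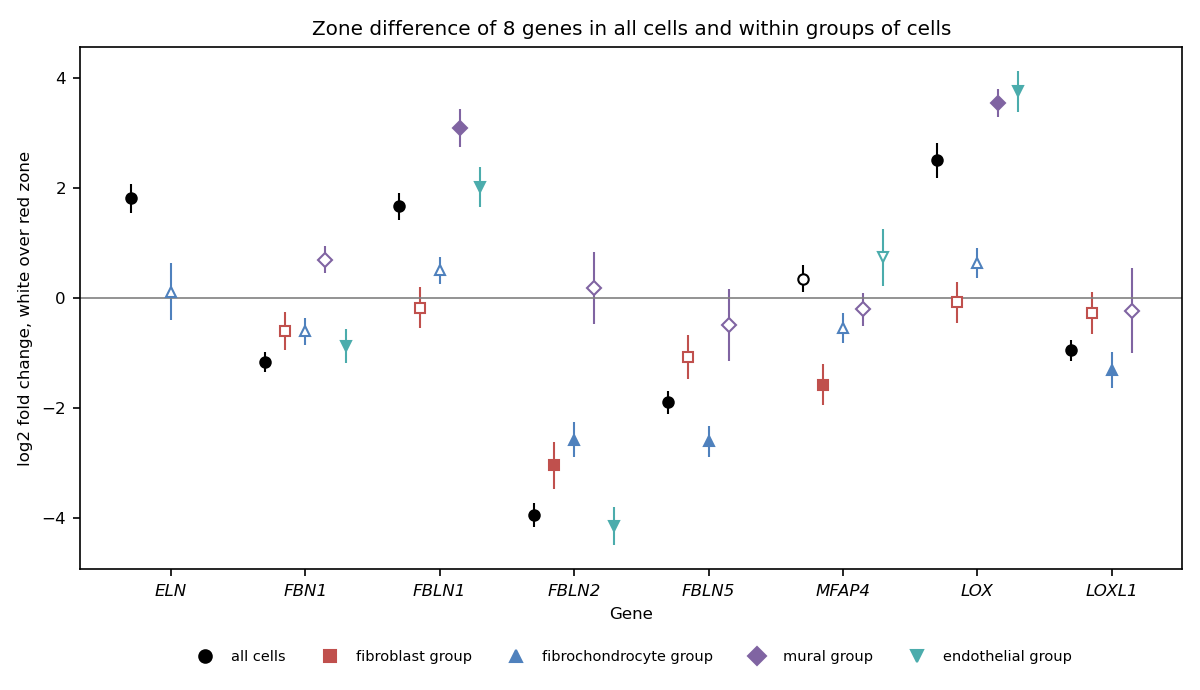
Points are log2 fold changes of white over red zone for all cells and for 4 groups of cells. Bars are the SE derived from the F statistic, and filled points passed an adjusted p below 0.05. LOX and FBLN1 lie above 0 in all cells, mural and endothelial cells and near 0 in fibroblasts, and FBLN2 lies below -2 except in mural cells; MFAP5, which is at 0 in white fibroblasts and endothelial cells, is not drawn.

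Whether the zone effect differed between groups was tested in further edgeR fits, added after the data were seen. Between fibroblasts and fibrochondrocytes 0 of 9 genes differed, with 1.73% of 9011 genes called (94 higher and 62 lower, against 130 and 44 without TMM), while 5 of the 9 had an unadjusted p below 0.05 and DESeq2 called 0. The white over red effect was lower in fibroblasts than in mural cells for 4 of 8 tested genes (2.77% of 7723 genes called, 1.79% as lower). These 4 include MFAP5, which had 0 UMIs in white fibroblasts, so its call is no support. For LOX the difference of the log2 fold changes was -3.55 ± 0.35 (adjusted p = 5.94e-08), for FBLN1 -3.18 ± 0.38 (adjusted p = 1.76e-06) and for FBLN2 -3.22 ± 0.86 (adjusted p = 0.0344). FBLN2 lost this call without the lateral white library (adjusted p = 0.378) and after doublet removal (adjusted p = 0.0531), and the MFAP5 call (adjusted p = 0.0188) was lost without the medial white one (adjusted p = 0.231). Against endothelial cells 3 of 8 genes differed (2.47% of 7383 genes called, 1.52% as lower), namely LOX (-3.85 ± 0.61, adjusted p = 0.00137), FBLN1 (-2.15 ± 0.37, adjusted p = 0.00259) and MFAP4 (-2.38 ± 0.61, adjusted p = 0.0447). The MFAP4 difference was lost without the medial white library (-0.67, adjusted p = 0.879), and after removal of doublets at the expected rate only the LOX difference was called.

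Within the red zone part of the fibroblast group was assigned by marker lists to adventitial (PI16, CD34, DPP4), stromal (CXCL14, CXCL12, APOD) and tendon-like (TNMD, KERA, THBS4) fibroblasts, a comparison added after the data were seen. There were 416, 607 and 439 such cells in the medial red library and 218, 268 and 288 in the lateral red library, while 1149 of 2611 and 758 of 1532 fibroblasts joined no subgroup. Adventitial fibroblasts, the cells around vessels and at tissue borders, had the highest MFAP5 in both libraries, with 968 and 871 CPM, against 515 and 534 CPM in stromal and 461 and 202 CPM in tendon-like fibroblasts. FBN1 followed the same order, with 468 and 507 CPM in adventitial, against 322 and 312 CPM in stromal and 189 and 192 CPM in tendon-like fibroblasts.

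Against stromal fibroblasts 4 of 8 tested genes were higher in adventitial ones and none lower, with 5.83% of 6584 genes called, 3.05% as higher. These were LOX (0.99 ± 0.17, adjusted p = 0.000598), MFAP5 (0.82 ± 0.18, adjusted p = 0.0064), FBLN2 (0.74 ± 0.15, adjusted p = 0.00314) and FBN1 (0.62 ± 0.15, adjusted p = 0.0115). Against tendon-like fibroblasts, with 5.39% of genes called, 3.05% as higher and 2.34% as lower (289 and 114 genes without TMM, against 201 and 154 with it), MFAP5 (1.40 ± 0.19), FBN1 (1.25 ± 0.15) and FBLN2 (0.60 ± 0.15) were higher, and LOX (-0.78 ± 0.16) and MFAP4 (-0.76 ± 0.18) were lower. LOX thus had its highest level in tendon-like cells, at 948 and 1249 CPM, against 774 and 594 CPM in adventitial and 381 and 310 CPM in stromal cells. With DESeq2 the FBLN2 (adjusted p = 0.195) and MFAP4 (adjusted p = 0.0623) calls against tendon-like cells were lost. Each subgroup had 2 libraries, so no library could be left out, and the lists that divided the cells share PI16 and other genes with the fibroblast markers.

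**Figure D5:**
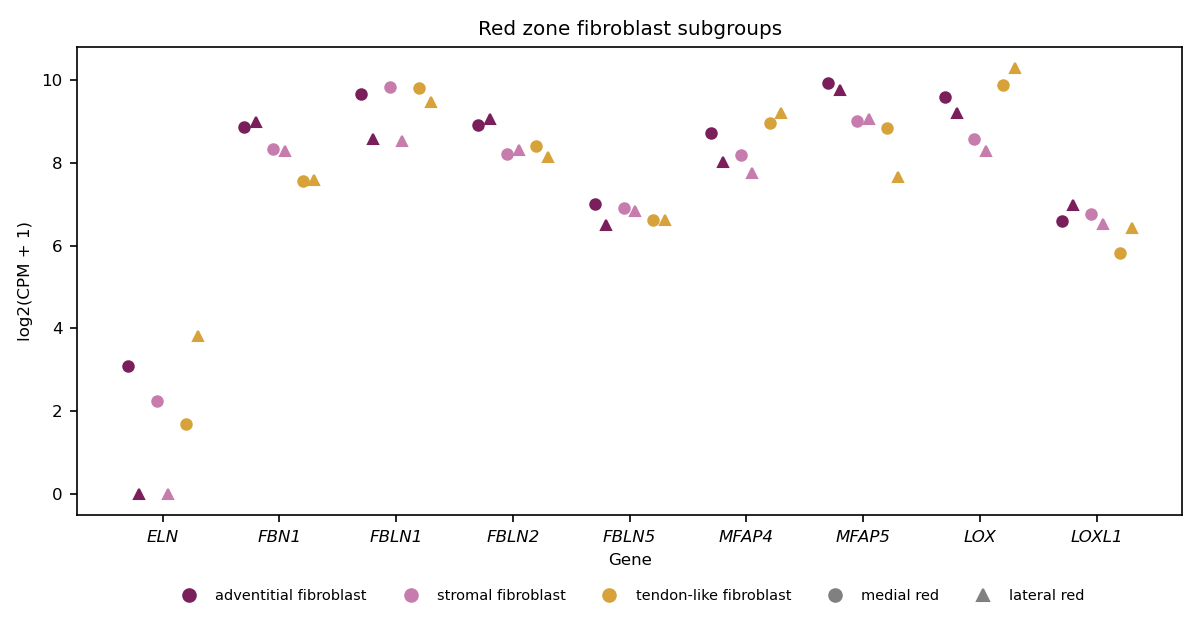
Each point is the level of 1 gene, as log2(CPM + 1), in 1 subgroup of red zone fibroblasts in the medial red or the lateral red library. Adventitial fibroblasts lie highest for MFAP5, FBN1 and FBLN2 in both libraries, and tendon-like fibroblasts for LOX.

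Other genes of the elastic fibre pathway were counted by list in the zone test over all cells, in which 18.9% of all genes were higher and 22.9% lower. Of 20 tested microfibril and fibre accessory genes 8 were higher and 6 lower in the white zone, with a median log2 fold change of 0.18. The split was 4 higher and 9 lower without TMM. DCN, the collagen-binding proteoglycan decorin, was higher by 2.79 ± 0.49 and ADAMTSL3 by 2.42 ± 0.19. BGN was higher by 1.34 ± 0.40 and EFEMP1 by 1.12 ± 0.25, and neither was called by edgeR without TMM (adjusted p = 0.0896 and 0.0575). Neither was called without either red library. Their log2 fold changes were then 1.41 and 1.13 without the lateral red and 1.33 and 1.21 without the medial red library. EMILIN2, an elastin-interface glycoprotein, was -2.51 ± 0.20, TNXB, which encodes tenascin-X, -2.43 ± 0.46 and VCAN, the proteoglycan versican, -1.35 ± 0.23. TNXB is also a marker of the fibroblast group. Its fold change was -1.13 without the lateral white and -3.79 without the medial white library, and its call was lost with DESeq2 (adjusted p = 0.0803), without the lateral red (0.0553) or the medial red library (0.0882) and without the meniscus term (0.0611).

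Latent TGF-beta binding proteins sit on microfibrils and hold the growth factor. Of 4 tested, 3 were higher in white and none lower, with a median of 0.80, but without TMM, and likewise without the medial white library, 2 were higher and 1 lower. LTBP2 was 2.40 ± 0.19 and LTBP1 1.07 ± 0.20, which lost its call without the lateral red library (adjusted p = 0.0536). LTBP3 (0.54 ± 0.20, adjusted p = 0.0429) was not called without TMM, with DESeq2 (adjusted p = 0.116), with all barcodes (0.0594), after doublet removal at the expected rate (0.0627), without the meniscus term (0.0840), without the medial white library (0.299) or without either red library. Of 6 further cross-linking genes 4 were higher and none lower, with a median of 0.91, but 2 were higher and 1 lower without TMM and 3 higher and 1 lower without the medial white library. Among them LOXL3, a lysyl oxidase, was 2.05 ± 0.24, ATP7A, which supplies copper to lysyl oxidases, 0.92 ± 0.20 and PCOLCE, an enhancer of procollagen processing, 0.90 ± 0.31. ATP7A and PCOLCE were not called without TMM or without either red library, nor PCOLCE without the medial white library (adjusted p = 0.0802) or after doublet removal at the expected rate (0.0547).

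Of 7 tested proteases able to cleave elastin 1 was higher and 4 were lower in white, with a median of -1.09, and DESeq2 called 0 of 8 higher and 4 lower. MMP2, a gelatinase, had 29.0 and 38.7 CPM in white, against 761 and 447 CPM in red (-3.63 ± 0.30). CTSS, a cathepsin of myeloid cells, was -2.36 ± 0.21, MMP14, which activates MMP2, -1.25 ± 0.25 and CTSL, a lysosomal cathepsin, -1.09 ± 0.24. MMP14 lost its call without the lateral red library (adjusted p = 0.0504) and CTSL without the medial red one (-0.76, adjusted p = 0.103). Myeloid cells made 0.628% and 0.962% of the medial and lateral white library, against 6.88% and 8.30% of the medial and lateral red one. The protease that was higher in white was MMP7, matrilysin, named after its values were seen because it lay below the level set for naming, and its call was lost with DESeq2 (adjusted p = 0.159) and without the lateral red (0.0801) or the medial red library (0.118). Inside fibroblasts MMP2 was the 1 protease of 4 tested that was called, as lower, and none was called without TMM or without either red library. Of 17 accessory genes tested there, 4 were lower (EMILIN2, EFEMP1, FBLN7 and TNXB) and 1 was higher (ADAMTSL3), and these were named after their values were seen. DESeq2 called 0 of these accessory genes higher and 1 lower in fibroblasts, the test without TMM 0 and 2, that without the medial red library 0 and 1, and that without the lateral red library 1 and 1.

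For each gene the 2 most alike genes were found over 25 units, each 1 library and group with at least 50 cells, by Pearson's r of log2(CPM + 20). The units share libraries and depth, so r is only a description. They were also formed by marker genes that include PI16, SFRP2 and FMOD, so likeness to these markers is partly built in. MFAP5 was most like PI16 (r = 0.91) and SFRP2 (0.86), both of them fibroblast markers. FBLN2 was most like CFI (0.87) and CD34 (0.76), and FBN1 like FSTL1 (0.93) and MAP1LC3A (0.91). LOX was most like DCN (0.98) and PRELP (0.98), and FBLN1 like FMOD (0.97) and PCOLCE (0.96). MFAP4 was most like SPARC (0.94) and PCOLCE (0.92), FBLN5 like ITGBL1 (0.94) and P4HA3 (0.91), LOXL1 like P4HA3 (0.90) and BICC1 (0.89), and ELN like PGM3 (0.87) and VIT (0.83). Among the 9 genes themselves LOX and FBLN1 were the most alike pair (r = 0.96), and the lowest r was that of ELN and MFAP5 (-0.23).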

How the data were processed

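Single-cell 3' RNA libraries of 4 meniscus pieces were analysed. The authors deposited UMI counts per gene and barcode, made with Cell Ranger 6.1.2 on Sscrofa11.1, per the submitters' processing notes, after a first barcode filter. Symbols for 14811 of the 21280 features stood in the files, 694 came from the reference table and 5775 features kept an identifier.

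Barcodes under 500 UMIs or 200 genes, or with over 20% of UMIs from 13 mitochondrial genes, were dropped. Scrublet (scanpy 1.11.5, Python 3.11.15) called 2, 3, 294 and 147 doublets in the medial white, lateral white, medial red and lateral red library, which were removed. In the white libraries it marked under 0.05% of barcodes, so a second removal, at the expected rate and chosen after seeing the data, serves as an alternative.

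Cells were grouped by the mean z-score of log2(1 + counts per 10000) of each marker list, with a score of at least 0.25, a lead of 0.1 and 2 detected markers (stricter: 0.5, 0.3 and 3). Deposited counts were summed per library, or per library and group, and tested with edgeR 4.0.16 (R 4.3.3, TMM, filterByExpr, glmQLFit, glmQLFTest), or DESeq2 1.42.0 as an alternative. TMM factors over all cells were 0.879, 0.808, 1.20 and 1.17 in the library order above. P-values were adjusted by Benjamini-Hochberg over all genes tested.

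The 9 genes, the other gene lists and the markers were chosen with earlier results of these data known. Other genes are named where they pass the zone test over all cells with a mean of at least 20 CPM, up to 4 per list and direction with the largest change. The meniscus pairs the libraries of the zones only as a term of the model, since the labels do not say that they share an animal. Alternatives were other scaling, no filter on low counts, each library left out, all barcodes and no meniscus term. No sequence is shown.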

Additional observations from a re-analysis of the deposited data

Results flagged for a closer look

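In 7 cases the white over red difference of a gene was unlike between groups of cells in an edgeR test of the difference itself. Between fibroblasts and mural cells the difference of the log2 fold changes was -3.18 for FBLN1, -3.22 for FBLN2, -3.55 for LOX and -10.48 for MFAP5. The MFAP5 value is no bound, since white fibroblasts held 0 UMIs of it and white mural cells 4. Between fibroblasts and endothelial cells it was -2.15 for FBLN1, -2.38 for MFAP4 and -3.85 for LOX. Fibrochondrocyte and chondrocyte markers were also higher in white mural and endothelial cells, and their part in these values was not tested.

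In 5 further cases 2 libraries differed one way in 1 zone or meniscus and the other way in the other, which was not tested. The medial minus lateral log2 difference was -0.049 in the white and 0.24 in the red zone for FBN1, -0.12 and 0.41 for FBLN2, -0.040 and 0.52 for FBLN5, and 0.46 and -0.39 for LOX. For MFAP4 the white minus red difference was 0.84 in the medial and -0.15 in the lateral meniscus.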

How the results depend on the processing

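Over the alternatives 1156 of 1228 values of the 9 genes stayed on their side of the threshold, 48 lost a call, 24 gained one and 0 called values changed sign (53 uncalled ones did); for the zones over all cells 88 of 90 kept it. Without the meniscus term (no replicate block) 8 of the 9 genes and 4628 genes were called between zones. Leaving out 1 library gave 7 to 9 of the 9 and 2418 to 5145 of all genes (2418 without medial red, 2837 without lateral red), and DESeq2 3104 of all genes, against 5203. Between menisci, all-gene counts were 0 without the block, without any 1 library and after doublets were removed at the expected rate, 8 with all barcodes, 18 without TMM and 158 without a filter, against 33.

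Counts of the 9 genes moved as follows. Inside fibroblasts they ranged from 2 to 5 when 1 library was left out, inside endothelial cells from 2 to 4, with 1 in DESeq2 and 3 after doublet removal, and inside fibrochondrocytes from 2 to 6. Fibroblasts against fibrochondrocytes gave 3 with DESeq2 and 3 with the stricter grouping, and mural against myeloid cells 3 to 5 with 1 library left out. Endothelial against myeloid cells gave 4 without a filter and 4 with the stricter grouping, and adventitial against tendon-like fibroblasts 3 with DESeq2. The difference of the zone effect between fibroblasts and fibrochondrocytes ranged from 0 to 1, and that between fibroblasts and endothelial cells was 1 after doublet removal. The cause was not tested. All-gene counts inside groups were 87 with DESeq2 and 93 to 325 with 1 library left out in fibroblasts (151 without TMM, against 296), 110 and 245 to 632 in mural cells (617 without TMM, 550 without a filter, against 303), 96 and 209 to 684 in endothelial cells (against 700), and 169 and 183 to 718 in fibrochondrocytes (235 with the stricter grouping, against 589). With 1 library left out, fibroblasts against fibrochondrocytes, chondrocytes, mural, endothelial and myeloid cells called at least 592, 1268, 1414, 2273 and 2753 genes (against 1260, 2122, 2973, 3871 and 4687), and mural and endothelial against myeloid cells at least 2586 and 2147 (against 4241 and 3549). DESeq2 called 163 genes for adventitial against stromal fibroblasts (against 384), 137 against tendon-like ones (355) and 58 for the zone effect of fibroblasts against fibrochondrocytes (156, and 51 to 143 with 1 library left out). For fibroblasts against mural cells that count was 141 to 264 (against 214), and against endothelial cells 287 without a filter (against 182). The stricter grouping left 22 medial white and 42 lateral white fibroblasts, under the minimum of 50, so it was not run for their zone test.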
